A study of Danio rerio with 13 samples.

Results

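Zebrafish larvae with both copies of aldh3b1 knocked out by CRISPR were set against wild-type larvae treated with 2-HD, by RNA sequencing of whole larvae. The comparison uses 8 of the 13 libraries of a series on the function of aldh3b1 in diabetic retinopathy: the 3 labelled aldh3b1 -/- with no treatment (KO replicates 2, 3 and 7) and the 5 labelled aldh3b1 +/+ with 2-HD (2-HD replicates 1 to 5). All 8 come from the Tg(fli1:EGFP) line, which expresses EGFP in endothelial cells from the fli1 promoter. The other libraries, from untreated wild-type larvae, enter only where they are named. The KO and 2-HD larvae differ in genotype and in treatment at the same time, so an effect of the knockout and an effect of 2-HD cannot be told apart here. What 2-HD stands for is not given in the labels, which also name no group treated with a vehicle. They state neither the dose or length of treatment nor the age, clutch or batch of the larvae, nor whether the knockout is 1 line or several. They also do not say whether libraries of one group are separate pools, so the p-values cover only the spread among these samples, and that spread may be technical.

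Aldehyde dehydrogenases oxidise reactive aldehydes, such as those that arise from lipid peroxidation and from the breakdown of sphingolipids, to carboxylic acids. Zebrafish larvae also carry light-entrainable clocks in most tissues. In the clock, ROR nuclear receptors activate transcription of the arntl (bmal) genes and the REV-ERB receptors of the nr1d family repress it. The retina and the pineal gland express many clock-controlled genes, and phototransduction in their photoreceptors runs through opsins, transducin, a cGMP phosphodiesterase and calcium-sensing activators of guanylate cyclase.

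Libraries held 19066393 to 19332225 counts in KO and 19339056 to 19482661 counts in 2-HD, so depth differed little but did not overlap between the groups. Larval tissues were represented in every library. Markers were chosen for retina, lens, neurons, liver, pancreas, gut, blood, muscle, heart, endothelium, skin, cartilage, leukocytes and pigment cells. All 41 that had an entry stood at 1.38 CPM (counts scaled by library size) or more. The heart marker vmhc and the endothelial marker fli1, also chosen, had no entry under these symbols. Among the 8 libraries, 2-HD replicate 1 stood apart from its group. On the first principal component, with 33.8% of the variance, the KO libraries scored 24.2 to 31.5, against 22.0 for 2-HD replicate 1 and -35.1 to -18.4 for the other 2-HD libraries. On the second component, with 23.0%, the extremes were KO replicate 2 at 38.0 and 2-HD replicate 1 at -47.7. The counts of calls in the gene lists are therefore given with and without these libraries.

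Of 21867 entries tested with edgeR's quasi-likelihood test, 1155 passed an adjusted p of 0.05, or 5.28%. Of these, 619 were higher in KO (2.83% of entries tested) and 536 were lower (2.45%). The change exceeded 2-fold in 71 of the higher and 77 of the lower entries, the median size of a called change was 0.55 on the log2 scale, and the median log2 fold change of all entries was -0.01. Libraries of the groups did not overlap for 17.9% of entries tested, with KO above 2-HD in 9.15% and below it in 8.76%. Among the 1155 called entries, 1123 did not overlap, so a lack of overlap was usual for a call. The largest rises and falls given below were chosen among called genes without overlap, so their separation follows from that choice. The count of calls depended strongly on single libraries. It was 19 without KO replicate 3, 43 without 2-HD replicate 4, 113 without 2-HD replicate 2, 187 without KO replicate 7, 275 without KO replicate 2, 300 without 2-HD replicate 5, 310 without 2-HD replicate 3 and 3755 without 2-HD replicate 1. All 1155 entries kept the direction of their change in each of these 8 fits. For the 1123 without overlap, the lack of overlap largely fixed that outcome. In what follows, a gene rose or fell where it passed the threshold with all 8 libraries, and the number of fits leaving out 1 library in which it still passed is given as its count of 8, or as a range for genes named together. A list's share of calls stands against the shares of all entries, 2.83% higher, 2.45% lower and 5.28% either way. In a fit leaving out 1 library, it stands against that fit's share. This was 3755 of 21782 entries (17.2%) without 2-HD replicate 1 and 275 of 22132 without KO replicate 2. Without KO replicate 3 it was 19 of 22118, so a count of 0 there was usual for a list.

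The targeted gene was lower in KO. aldh3b1 stood at 5.73, 5.64 and 4.60 CPM in KO replicates 2, 3 and 7, against 13.5, 8.36, 9.89, 8.98 and 11.1 CPM in 2-HD replicates 1 to 5. The groups did not overlap, and the highest value belonged to 2-HD replicate 1. The log2 fold change was -0.96 (SE 0.17, 95% interval -1.34 to -0.58, adjusted p = 0.0237), a 1.95-fold higher level in 2-HD. It passed in 5 of 8 fits leaving out 1 library and was lost without KO replicate 3 (adjusted p = 0.0929), KO replicate 7 (0.0648) or 2-HD replicate 4 (0.0636). On the scale of all 13 libraries, aldh3b1 averaged 5.19 ± 0.608 CPM in KO (SD, n = 3), 10.2 ± 1.99 CPM in 2-HD (SD, n = 5) and 6.10 ± 1.22 CPM in untreated wild type (SD, n = 5). The KO values of 4.49 to 5.59 CPM lay within or below the untreated wild-type range of 4.62 to 7.45 CPM, and the 2-HD values of 8.13 to 13.2 CPM lay above it. A CRISPR lesion need not alter the mRNA level, so this level does not check the genotype label.

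Among the 21 aldehyde dehydrogenase entries tested, 5 fell and 0 rose in KO (23.8% called, against 2.45% of all entries called lower). The median log2 fold change of the family was -0.12, and the 5 falls include the targeted gene aldh3b1. The others were aldh16a1, aldh3a2b, aldh2.2 and aldh1a2. Of these, aldh16a1 lies 60 measured genes from aldh3b1, in the stretch described below where a high share of the genes was called. Expression of aldh16a1 was 15.2, 14.0 and 18.4 CPM in KO replicates 2, 3 and 7, against 20.6, 25.4, 25.8, 26.9 and 27.1 CPM in 2-HD replicates 1 to 5 (log2 fold change -0.67, SE 0.12, adjusted p = 0.0237, 4 of 8 fits). The fatty aldehyde dehydrogenase gene aldh3a2b stood at 10.9, 14.4 and 14.0 CPM in KO, against 18.4, 25.5, 24.2, 18.8 and 18.3 CPM in 2-HD (log2 fold change -0.68, SE 0.15, adjusted p = 0.0353, 1 of 8 fits). In both genes every KO library lay below every 2-HD library. The mitochondrial acetaldehyde dehydrogenase gene aldh2.2 changed by -0.37 on the log2 scale (SE 0.08, adjusted p = 0.0367), and aldh1a2, the main retinoic acid synthesising enzyme of the trunk, by -0.45 (SE 0.10, adjusted p = 0.0369), each passing in 2 of 8 fits. The near relative aldh3b2 had a fitted log2 fold change of 0.65 that did not pass (adjusted p = 0.16). The family count was 0 without KO replicate 3, 1 without KO replicate 2, and 2 higher and 6 lower without 2-HD replicate 1.

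The largest rises in KO included several genes of photoreceptors and photosensitive cells. The inhibitory subunit gene of the cone cGMP phosphodiesterase, pde6ha, stood at 53.5, 75.3 and 70.8 CPM in KO replicates 2, 3 and 7, against 40.0, 11.2, 8.11, 12.7 and 7.55 CPM in 2-HD replicates 1 to 5. The value of 2-HD replicate 1 was far above those of the other 2-HD libraries. The log2 fold change of pde6ha was 2.07 (SE 0.46, adjusted p = 0.0359), and the gene passed only without 2-HD replicate 1 among the 8 fits. The gene rbp3 encodes the interphotoreceptor retinoid-binding protein, which carries retinoids between photoreceptors and pigment epithelium. It was at 255, 324 and 389 CPM in KO, against 149, 121, 84.9, 116 and 117 CPM in 2-HD. The log2 fold change of rbp3 was 1.46 (SE 0.17, adjusted p = 0.00571, 8 of 8 fits).

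The photoreceptor potassium channel subunit gene kcnv2b stood at 7.84, 6.75 and 7.17 CPM in KO, against 3.98, 2.79, 1.57, 2.41 and 2.87 CPM in 2-HD (log2 fold change 1.41, SE 0.23, adjusted p = 0.0199, 5 of 8 fits). Among non-visual opsins, opn3 was at 8.62, 9.49 and 7.81 CPM in KO, against 5.42, 3.35, 2.89, 2.62 and 2.26 CPM in 2-HD (1.39, SE 0.24, adjusted p = 0.0236, 5 of 8 fits). For opn6b the KO values were 18.8, 16.8 and 19.6 CPM and the 2-HD values 4.46, 6.94, 4.61, 6.51 and 12.5 CPM (1.39, SE 0.27, adjusted p = 0.0278, 2 of 8 fits). The 2-HD value nearest to KO was in replicate 1 for kcnv2b and opn3 and in replicate 5 for opn6b. The 12 largest rises also include the clock genes rorcb and nfil3-6, given with their list, and npvf, a hypothalamic RFamide neuropeptide gene (log2 fold change 1.57, 2 of 8 fits). The others were in the protein phosphatase gene ppm1na (1.497, 6 of 8 fits), the calcium/calmodulin-dependent kinase gene camk1gb (1.43, 1 of 8), the acyl-CoA thioesterase gene acot19 (1.41, 1 of 8) and the carbonic anhydrase gene ca4b (1.34, 5 of 8). camk1gb resembled pde6ha in its libraries, with 78.8, 58.5 and 71.8 CPM in KO, against 54.6 CPM in 2-HD replicate 1 and 17.6 to 21.1 CPM in the other 2-HD libraries.

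The largest falls came from several tissues. The ferritin heavy chain-like gene fthl29 was at 0.263, 0.369 and 0.535 CPM in KO, against 0.903, 4.41, 9.99, 4.87 and 24.5 CPM in 2-HD (log2 fold change -4.50, SE 1.07, adjusted p = 0.0417, 1 of 8 fits). The 2-HD libraries themselves were spread widely, so the size of this change is poorly determined. Other ferritin-like genes lie beside fthl29, with fitted values both ways (fthl28 -3.23, fthl31 -1.46, fthl30 0.75 and fthl27 0.67). Reads may have been divided among them in a way that cannot be checked here. The gene guca1a, for a photoreceptor calcium sensor that activates guanylate cyclase, stood at 2.21, 1.69 and 1.498 CPM in KO, against 5.79, 12.6, 7.96, 13.5 and 9.21 CPM in 2-HD (-2.44, SE 0.30, adjusted p = 0.00795, 7 of 8 fits). For eevs, an enzyme of the synthesis of the sunscreen compound gadusol in fish, KO had 8.47, 9.39 and 7.87 CPM and 2-HD had 14.3, 36.3, 60.0, 45.4 and 43.5 CPM (-2.22, SE 0.37, adjusted p = 0.0231, 3 of 8 fits). For guca1a and eevs, 2-HD replicate 1 was the 2-HD library nearest to KO.

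The angiotensin-converting enzyme gene ace was at 69.2, 90.8 and 85.6 CPM in KO, against 235, 270, 189, 239 and 235 CPM in 2-HD (log2 fold change -1.51, SE 0.13, adjusted p = 0.00131, 8 of 8 fits). Complement component gene c3a.2 was at 9.20, 14.6 and 16.6 CPM in KO, against 53.3, 46.2, 54.3, 46.7 and 56.5 CPM in 2-HD (-1.93, SE 0.17, adjusted p = 0.00131, 8 of 8 fits). In these genes 2-HD replicate 1 lay among the other 2-HD libraries. The steroid 11-beta-hydroxylase gene cyp11c1, of cortisol synthesis, was at 4.05, 6.06 and 5.78 CPM in KO, against 13.4, 18.0, 18.0, 20.3 and 14.6 CPM in 2-HD (-1.67, SE 0.18, adjusted p = 0.00423, 8 of 8 fits). The haemopexin gene hpxa (-1.87), the embryonic globin gene hbbe1.3 (-1.84), the meiotic recombination gene psmc3ip (-1.60) and the transcription factor gene bhlha9 (-1.57) also fell, and passed in 1 to 4 of 8 fits.

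**Figure D1:**
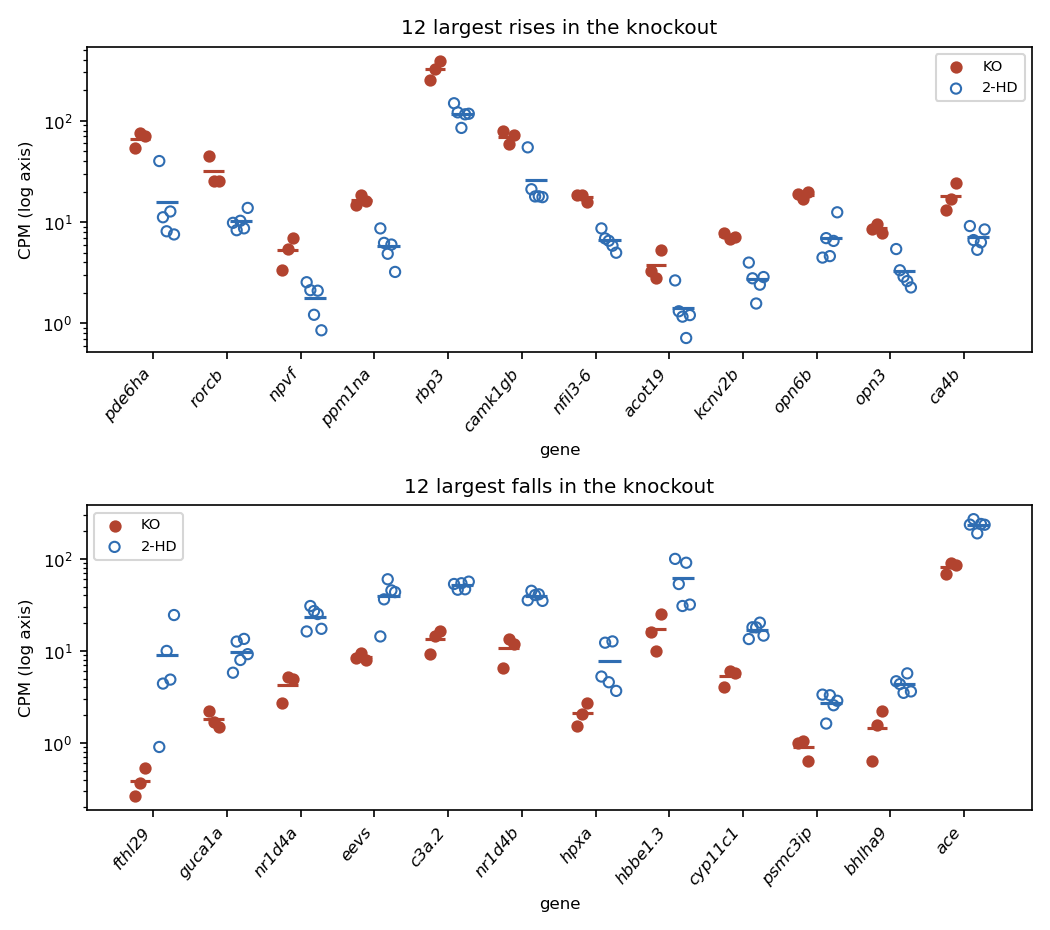
CPM by library, on log axes, for the 12 genes with the largest rises (top) and the 12 with the largest falls (bottom) in KO (filled red, left, 3 libraries) against 2-HD (open blue, right, 5 libraries); horizontal lines are group means. The single high 2-HD point of pde6ha (40.0 CPM) and of camk1gb (54.6 CPM) is 2-HD replicate 1, and the 2-HD values of fthl29 spread from 0.903 to 24.5 CPM.

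Clock genes moved in both arms of the ROR and REV-ERB loop. Of 58 clock and clock output entries tested, 13 rose and 2 fell (25.9% called, against 5.28% over all entries), with a median log2 fold change of 0.12. All 4 ROR receptor genes that passed rose. rorcb was at 45.0, 25.4 and 25.3 CPM in KO replicates 2, 3 and 7, against 9.83, 8.31, 10.3, 8.67 and 13.8 CPM in 2-HD replicates 1 to 5 (log2 fold change 1.65, SE 0.21, adjusted p = 0.00817, 8 of 8 fits). rorca was at 57.8, 50.5 and 55.8 CPM in KO, against 31.9, 21.4, 21.0, 17.5 and 27.6 CPM in 2-HD (1.19, SE 0.16, adjusted p = 0.0113, 7 of 8 fits). Both receptors separated the groups, and KO replicate 2 was highest for each. Smaller rises were seen in rorab (0.73, 4 of 8 fits) and roraa (0.61, 3 of 8).

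In the REV-ERB family, nr1d4a stood at 2.73, 5.17 and 4.98 CPM in KO, against 16.3, 30.7, 27.1, 25.1 and 17.4 CPM in 2-HD (log2 fold change -2.44, SE 0.27, adjusted p = 0.00539, 8 of 8 fits). Its paralogue nr1d4b was at 6.47, 13.4 and 11.99 CPM in KO, against 35.5, 45.0, 40.4, 41.1 and 34.9 CPM in 2-HD (-1.89, SE 0.20, adjusted p = 0.00423, 8 of 8 fits). KO replicate 2 was the lowest library for both, and every 2-HD library was above the KO range. Other members of the family did not follow them: nr1d2b rose by 0.57 (SE 0.14, adjusted p = 0.0423, 1 of 8 fits), with 233 to 271 CPM in KO, against 232 CPM in 2-HD replicate 1 and 146 to 169 CPM in the other 2-HD libraries. The values of nr1d1 overlapped, at 64.9, 193 and 181 CPM in KO and 121 to 262 CPM in 2-HD (-0.23, adjusted p = 0.70).

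Of the 3 arntl genes, whose promoters are regulated by both receptor families, arntl1a and arntl1b rose and arntl2 did not pass (-0.26, adjusted p = 0.398). arntl1a was at 27.2, 24.99 and 22.4 CPM in KO, against 14.1, 12.1, 12.2, 14.5 and 15.8 CPM in 2-HD (log2 fold change 0.86, SE 0.11, adjusted p = 0.00805, 7 of 8 fits), and arntl1b rose by 0.65 (SE 0.15, adjusted p = 0.0411, 2 of 8 fits). No library of one group entered the range of the other for arntl1a. Of the NFIL3-type repressors, nfil3-6 and nfil3-5 rose, and nfil3 had a fitted value of 0.34 that did not pass (adjusted p = 0.14). nfil3-6 was at 18.5, 18.4 and 15.9 CPM in KO, against 8.66, 6.89, 6.54, 5.85 and 4.98 CPM in 2-HD (1.42, SE 0.15, adjusted p = 0.00423, 8 of 8 fits), and nfil3-5 at 53.7, 50.9 and 48.2 CPM in KO, against 32.7, 31.7, 26.9, 32.4 and 33.2 CPM in 2-HD (0.70, SE 0.08, adjusted p = 0.00795, 7 of 8 fits). Of the negative limb, cry1b rose by 0.94 (SE 0.20, adjusted p = 0.0344, 2 of 8 fits).

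The period genes did not pass. per2, a light-induced period gene, was at 28.7, 21.7 and 21.1 CPM in KO, against 16.2 CPM in 2-HD replicate 1 and 52.2 to 93.1 CPM in the other 2-HD libraries (log2 fold change -1.24, adjusted p = 0.0956). per1b (0.81, adjusted p = 0.0939) and per3 (0.55, adjusted p = 0.18) had fitted values above 0 and per1a (-0.50, adjusted p = 0.21) below 0, with overlapping libraries in each. The photolyase-related gene cry5, also light-induced in zebrafish, was at 4.05 to 4.53 CPM in KO, against 4.51 CPM in 2-HD replicate 1 and 7.15 to 11.5 CPM in the others (-0.97, adjusted p = 0.0576). In the fit without 2-HD replicate 1, 16 clock entries rose and 8 fell. The counts were 7 and 2 without KO replicate 2, and 2 and 2 without KO replicate 3. The labels give no time of day of sampling for either group, so a difference in sampling time cannot be told apart from genotype and treatment.

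**Figure D2:**
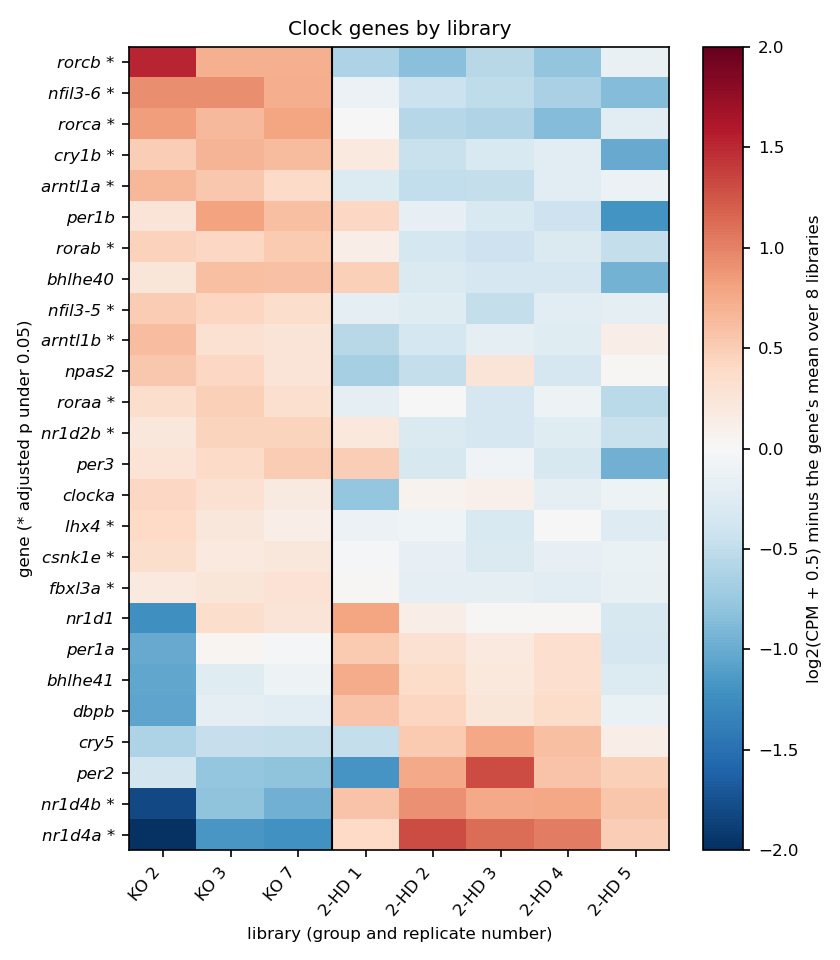
Clock genes (rows, ordered by log2 fold change, asterisk for adjusted p under 0.05) in the 3 KO (left of the line) and 5 2-HD libraries (right), as log2(CPM + 0.5) minus the gene's mean over the 8 libraries. The ROR genes rorcb and rorca are high in every KO library and nr1d4a and nr1d4b are low in every KO library, while for per2 and cry5 2-HD replicate 1 takes the colour of the KO libraries.

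The phototransduction and visual cycle genes that passed moved both ways. Of 85 cone and rod phototransduction entries, 5 rose and 2 fell (8.24% called, median log2 fold change 0.09). The share called higher was 5.88%, against 2.83% of all entries. The share called lower was 2.35%, no more than the 2.45% of all entries. Beside pde6ha and kcnv2b, the cone transcription factor gene six7 rose, at 43.4, 52.4 and 34.7 CPM in KO, against 32.5, 26.4, 28.0, 26.1 and 31.0 CPM in 2-HD (0.60, SE 0.13, adjusted p = 0.0338, 2 of 8 fits). The cone channel gene cnga3b fell as guca1a did (-0.98, SE 0.22, adjusted p = 0.0365, 1 of 8 fits). The abundant photoreceptor genes gnat2 (0.29, adjusted p = 0.38), opn1mw1 (0.38, adjusted p = 0.14), rho (0.15, adjusted p = 0.38) and pde6c (0.24, adjusted p = 0.52) overlapped between the groups. Of 27 visual cycle and pigment epithelium entries, 3 rose and 2 fell (18.5% called, against 5.28% over all entries), with 3 and 3 without 2-HD replicate 1, 2 and 0 without KO replicate 2, and 1 and 0 without KO replicate 3. The photoreceptor retinol dehydrogenase gene rdh8b was at 22.3, 26.9 and 25.1 CPM in KO, against 16.6, 11.7, 7.86, 10.8 and 10.4 CPM in 2-HD (1.11, SE 0.19, adjusted p = 0.0231, 4 of 8 fits). The retinol-esterifying gene lrata was at 5.05, 5.27 and 6.15 CPM in KO, against 9.19, 15.1, 12.1, 18.1 and 19.3 CPM in 2-HD (-1.43, SE 0.23, adjusted p = 0.0218, 4 of 8 fits). Both separated the groups, and 2-HD replicate 1 was the nearest to KO in each. In the inner retina, trpm1a of bipolar cells (0.53, adjusted p = 0.034, 2 of 8 fits) and rbpms2a of ganglion cells (0.44, adjusted p = 0.0398, 1 of 8) were the 2 of 38 entries called (5.26%, against 2.83% of all entries called higher and 5.28% called either way). Fitted values were above 0 for 32 of these 38 entries, with a median log2 fold change of 0.15, and DESeq2 called 4 higher and 0 lower. Their summed level was 2205 to 2278 CPM in KO and 1883 to 2192 CPM in 2-HD. Without 2-HD replicate 1, 6 inner retina entries rose, and without KO replicate 2 or KO replicate 3 the count was 0. Leaving out 2-HD replicate 1, 13 phototransduction entries rose and 8 fell, whereas 1 rose and 1 fell without KO replicate 2 and 0 passed without KO replicate 3. None of 53 lens crystallin entries passed in edgeR or in DESeq2, with 4 at an unadjusted p under 0.05 in edgeR. Leaving out 2-HD replicate 1 or KO replicate 2 gave 1 rise each in that list, and KO replicate 2 was the lowest of the 3 KO libraries in 51 of its entries. In whole larvae, fewer cells of a type and less RNA per cell cannot be told apart.

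The neuronal genes that passed changed by small amounts. Of 100 neuronal and synaptic entries, 13 rose and 1 fell (14% called, against 5.28% over all entries), with a median log2 fold change of 0.26, and the summed level was 11690 to 12844 CPM in KO and 9077 to 11503 CPM in 2-HD. The AMPA receptor subunit gene gria3b was at 60.8, 63.3 and 57.5 CPM in KO, against 44.2, 38.9, 37.3, 41.1 and 35.3 CPM in 2-HD (0.62, SE 0.08, adjusted p = 0.0112, 7 of 8 fits). The synaptotagmin gene syt11a was at 138, 137 and 138 CPM in KO, against 111, 109, 101, 107 and 96.1 CPM in 2-HD (0.39, SE 0.07, adjusted p = 0.0237, 3 of 8 fits). The microtubule-associated protein genes map1aa (0.39) and map1b (0.42) and the GABA-synthesising gene gad1b (0.43) rose, in 1 to 2 of 8 fits. Each of these separated the groups, and 2-HD replicate 1 was the highest of the 5 2-HD libraries in 56 of the 100 entries. The single fall was in syt5a (-0.66, 2 of 8 fits), which lies close to aldh3b1 in gene order. Setting 2-HD replicate 1 aside, 51 entries rose and 1 fell, in a fit that called 17.2% of all entries. Without KO replicate 2 only 1 rose, and without KO replicate 3, where 19 of all 22118 entries were called, the count was 0. Of 39 radial and Muller glia entries, 0 rose and 2 fell (5.13% called, against 2.45% of all entries called lower and 5.28% called either way). Fitted values were above 0 for 26 of the 39, and the median log2 fold change was 0.09. DESeq2 called 5 of the 39 higher and 2 lower, and edgeR without 2-HD replicate 1 gave 6 and 3. Without KO replicate 2 edgeR gave 0 and 1, and without KO replicate 3 the count was 0. The falls were in sox9b (-0.40, 1 of 8 fits) and the astroglial sodium pump subunit gene atp1a2a (124, 106 and 98.1 CPM in KO, against 159, 176, 210, 173 and 191 CPM in 2-HD, log2 fold change -0.73, SE 0.11, adjusted p = 0.0144, 6 of 8 fits).

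Immediate early genes, which are induced within minutes by neuronal activity or stress, rose in part. Of 52 entries, 7 rose and 0 fell (13.5% called, against 2.83% of all entries called higher), the median log2 fold change was 0.67, and 46 had a fitted value above 0. ppp1r15a, which promotes dephosphorylation of eIF2-alpha, was at 70.9, 69.3 and 74.5 CPM in KO, against 57.6, 43.8, 45.9, 44.2 and 42.3 CPM in 2-HD (0.61, SE 0.10, adjusted p = 0.0224, 4 of 8 fits). ier5 was at 90.8, 99.97 and 96.6 CPM in KO, against 81.6, 60.3, 62.1, 66.6 and 63.2 CPM in 2-HD (0.52, SE 0.10, adjusted p = 0.0264, 1 of 8 fits). In these 2 genes the groups were apart. The AP-1 subunit genes fosl2 and jund passed although KO replicate 2 lay inside the 2-HD range: fosl2 was at 17.0, 34.3 and 33.8 CPM in KO, against 17.2, 14.2, 16.6, 13.7 and 12.7 CPM in 2-HD, and jund at 35.9, 74.0 and 63.7 CPM in KO, against 37.1, 33.8, 30.9, 32.5 and 29.7 CPM in 2-HD (each in 2 of 8 fits). KO replicate 2 was the lowest KO library in 44 of the 52 entries, and 2-HD replicate 1 was the highest 2-HD library in 45. The summed level was 1972 CPM in KO replicate 2 and 3412 and 3321 CPM in KO replicates 3 and 7, against 2646 CPM in 2-HD replicate 1 and 1457 to 1912 CPM in the other 2-HD libraries. Why KO replicate 2 and 2-HD replicate 1 stood apart from their groups was not tested. The activity marker npas4a (0.77, adjusted p = 0.109) and egr1 (0.68, adjusted p = 0.13) did not pass. With 2-HD replicate 1 left out, 33 of 51 entries rose, without KO replicate 2, 13 rose, and without KO replicate 3 the count was 0.

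The erythroid and haem list had the most falls of the 44 lists. Of 64 entries, 18 fell and 2 rose (31.2% called, against 5.28% over all entries), with a median log2 fold change of -0.49, and the summed level was 2878, 2762 and 2650 CPM in KO, against 3456 to 3731 CPM in 2-HD. The ranges of these sums did not overlap. Globin entries fell most: the second row of hbae1.3 was at 10.1, 8.28 and 13.9 CPM in KO, against 70.0, 39.0, 40.0, 58.3 and 29.9 CPM in 2-HD (-2.14, SE 0.29, adjusted p = 0.0107, 7 of 8 fits). Globin genes have near-identical copies, so their reads may have been divided among them in a way that cannot be checked here. The calls include genes for enzymes of haem synthesis, picked out after their values were seen: alas2 (-0.80), hmbsa (-0.41), urod (-0.81), cpox (-0.65), ppox (-0.60) and fech (-1.30), in 1 to 4 of 8 fits. The synthesis gene alad did not pass (-0.26, adjusted p = 0.234). Among the calls, alas2, the erythroid rate-limiting enzyme, was at 38.1, 21.7 and 24.8 CPM in KO, against 51.7, 55.5, 43.7, 56.0 and 39.5 CPM in 2-HD (SE 0.18, adjusted p = 0.0375, 2 of 8 fits).

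Some genes of iron uptake and of the red cell membrane were among the falls. The endosomal ferrireductase gene steap3 was at 1.37, 1.00 and 0.749 CPM in KO, against 2.55, 3.14, 2.53, 2.82 and 2.21 CPM in 2-HD (log2 fold change -1.34, SE 0.23, adjusted p = 0.0236, 4 of 8 fits). The erythroid spectrin gene sptb was at 81.1, 83.0 and 78.2 CPM in KO, against 103, 115, 111, 116 and 110 CPM in 2-HD (-0.46, SE 0.07, adjusted p = 0.0162, 5 of 8 fits). The groups were apart in both. The transferrin receptor genes tfr1a (-0.60) and tfr2 (-1.01) and the band 3 anion exchanger gene slc4a1a (-1.16) also fell, in 2 to 3 of 8 fits. The rises were in bpgm (0.39), which makes the haemoglobin effector 2,3-bisphosphoglycerate, and the ferritin-like gene fthl27 (0.67), which shares its symbol with another entry, each in 1 of 8 fits. Counts were 7 rises and 22 falls without 2-HD replicate 1 and 1 rise and 10 falls without KO replicate 2, and without KO replicate 3 the count was 0.

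The cholesterol synthesis genes that passed were all lower in KO. Of 32 entries, 6 fell and 0 rose (18.8% called, against 2.45% of all entries called lower), with a median log2 fold change of -0.50. Those that passed included the transcription factor gene srebf2 and the enzyme and transport genes fdft1, sc5d, dhcr7 and stard4, of which srebf2, dhcr7 and stard4 passed in 1 of 8 fits. Squalene synthase fdft1 was at 8.15, 10.3 and 9.53 CPM in KO, against 12.4, 17.4, 16.0, 16.7 and 16.0 CPM in 2-HD (-0.75, SE 0.13, adjusted p = 0.0236, 3 of 8 fits). For sc5d the KO values were 5.73, 5.48 and 3.91 CPM and the 2-HD values 6.32, 14.4, 15.7, 10.5 and 17.5 CPM (-1.35, SE 0.30, adjusted p = 0.0359, 1 of 8 fits). In both, 2-HD replicate 1 was close to KO.

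Several sterol enzyme genes with large fitted changes did not pass. The lanosterol demethylase gene cyp51 was at 23.7, 27.1 and 15.0 CPM in KO, against 18.1 CPM in 2-HD replicate 1 and 79.1 to 122 CPM in the other 2-HD libraries (log2 fold change -1.83, adjusted p = 0.0519). The HMG-CoA reductase gene hmgcra, for the rate-limiting enzyme, was at 39.4, 38.3 and 30.2 CPM in KO, against 24.1 CPM in 2-HD replicate 1 and 87.6 to 133 CPM in the others (-1.28, adjusted p = 0.0847). sqlea (-2.14, adjusted p = 0.0549) and msmo1 (-1.72, adjusted p = 0.0599) had the same order of libraries, with 2-HD replicate 1 inside or below the KO range. 2-HD replicate 1 was the lowest 2-HD library in 25 of the 32 entries, against 28% of all entries tested. The summed level was 621 to 720 CPM in KO, against 690 CPM in 2-HD replicate 1 and 969 to 1209 CPM in the other 2-HD libraries. Leaving 2-HD replicate 1 out, 23 of 31 entries fell. Without KO replicate 2 or without KO replicate 3 the count was 0.

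In the proteasome list 2-HD replicate 1 was again the 2-HD library nearest to KO by summed level. Of 52 entries, 7 fell and 1 rose (15.4% called, against 5.28% over all entries, median log2 fold change -0.29), and 2-HD replicate 1 was the lowest 2-HD library in 40. The regulatory particle gene psmd3 was at 56.6, 61.6 and 60.5 CPM in KO, against 70.0, 88.0, 83.3, 75.8 and 94.1 CPM in 2-HD (-0.47, SE 0.10, adjusted p = 0.034, 1 of 8 fits). The exception was the proteasome activator gene psme4a, at 28.3, 32.9 and 39.0 CPM in KO, against 24.5, 16.6, 19.97, 16.8 and 16.9 CPM in 2-HD (0.82, SE 0.15, adjusted p = 0.0237, 4 of 8 fits). Both genes separated the groups. The summed level was 2186 to 2343 CPM in KO, against 2346 CPM in 2-HD replicate 1 and 2651 to 3110 CPM in the others. If 2-HD replicate 1 was left out, 2 entries rose and 30 fell, and without KO replicate 2, 1 rose and 0 fell. Without KO replicate 3 the count was 0.

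**Figure D3:**
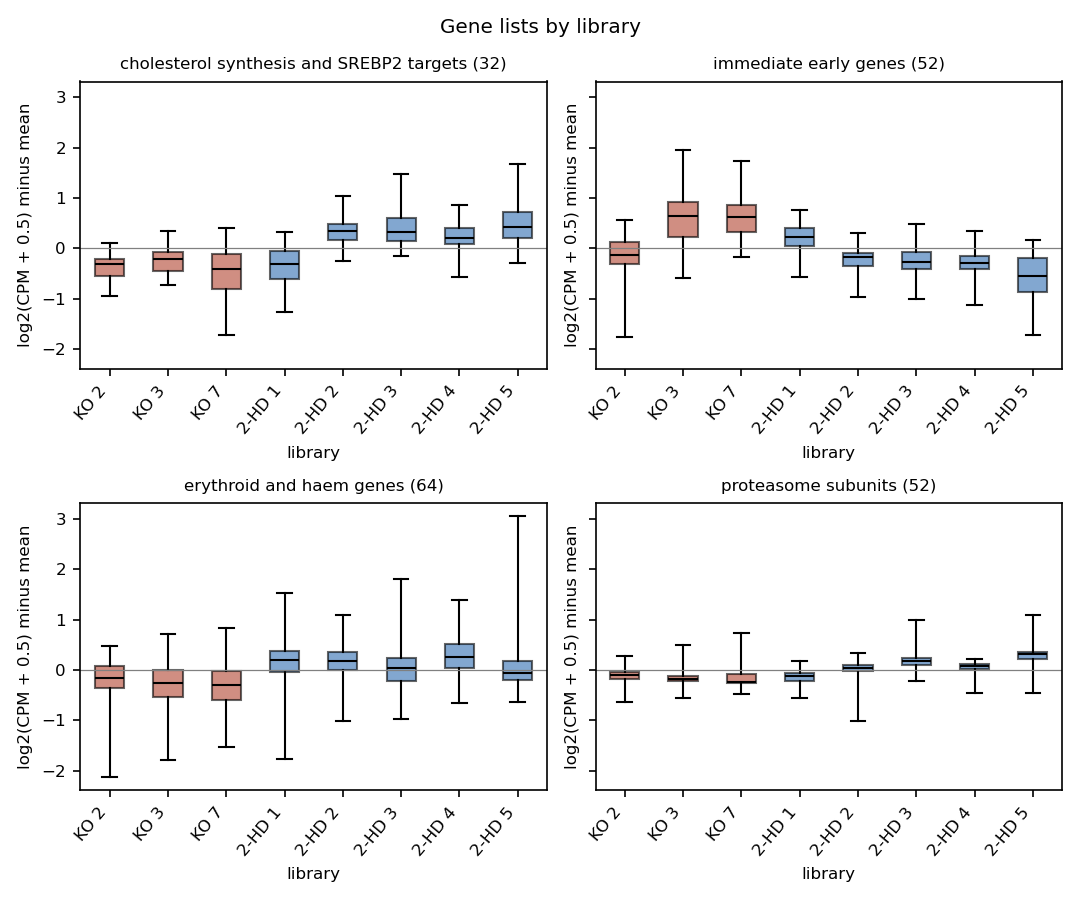
Distribution over the entries of 4 gene lists (number of entries in each title) of log2(CPM + 0.5) minus the entry's mean over the 8 libraries, for KO replicates 2, 3 and 7 (red, left) and 2-HD replicates 1 to 5 (blue, right); boxes span the quartiles with the median, and whiskers the full range. 2-HD replicate 1 sits with the KO libraries for cholesterol genes, is the 2-HD library nearest to them for proteasome genes, and sits above the other 2-HD libraries for immediate early genes, where KO replicate 2 is below the other KO libraries; for erythroid and haem genes 2-HD replicate 1 sits with its own group.

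Genes of the liver and the gut were lower in KO in part. Of 125 hepatocyte and plasma protein entries, 11 fell and 2 rose (10.4% called, against 5.28% over all entries, median log2 fold change -0.22). Beside c3a.2 and hpxa, the transferrin gene tfa stood at 1389, 1522 and 1523 CPM in KO, against 2269, 3023, 2371, 2743 and 2922 CPM in 2-HD (-0.85, SE 0.11, adjusted p = 0.00795, 7 of 8 fits). The antiplasmin gene serpinf2b was at 42.4, 37.9 and 46.1 CPM in KO, against 68.4, 69.9, 84.4, 67.2 and 77.9 CPM in 2-HD (-0.80, SE 0.10, adjusted p = 0.00795, 7 of 8 fits). Both were lower in every KO library. The vitronectin gene vtnb (-0.53), the complement gene c4b (-0.96) and the bile acid hydroxylase gene cyp8b1 (-0.69) fell too, in 1 to 4 of 8 fits, whereas the complement gene c6 rose (1.54, SE 0.31, adjusted p = 0.0288, 1 of 8 fits). The summed level of the list overlapped, at 19038 to 24295 CPM in KO and 23703 to 24998 CPM in 2-HD. The list had 7 rises and 26 falls without 2-HD replicate 1, 0 rises and 3 falls without KO replicate 2, and 1 fall without KO replicate 3.

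Of 80 intestinal entries, 10 fell and 0 rose (12.5% called, against 2.45% of all entries called lower, median log2 fold change -0.21). The brush border peptide transporter gene slc15a1a was at 45.2, 51.5 and 54.3 CPM in KO, against 79.3, 96.5, 86.5, 90.3 and 78.8 CPM in 2-HD (-0.78, SE 0.10, adjusted p = 0.00795, 7 of 8 fits). The intestinal alkaline phosphatase gene alpi.2 was at 8.99, 21.1 and 20.8 CPM in KO, against 48.6, 54.4, 32.5, 48.3 and 57.5 CPM in 2-HD (-1.51, SE 0.27, adjusted p = 0.0237, 4 of 8 fits). In both the groups were apart and KO replicate 2 was lowest. The meprin gene mep1a.1 (-0.83), the lactase gene lct (-0.74), the amino acid transporter gene slc6a19a.1 (-0.83) and the lipoprotein assembly gene mttp (-0.41) fell as well, in 2 to 5 of 8 fits. KO replicate 2 was the lowest KO library in 59 of the 80 entries, against 38.5% of all entries tested, and the reason was not tested. Without KO replicate 2, 4 entries fell, without KO replicate 3 the count was 0, and without 2-HD replicate 1, 6 rose and 22 fell. None of 34 exocrine pancreas entries passed in edgeR or in DESeq2, with 1 at an unadjusted p under 0.05 in edgeR. Without 2-HD replicate 1, 3 of 33 rose, and without KO replicate 2 the count was 0.

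Extracellular matrix genes fell without exception among those called. Of 147 entries, 14 fell and 0 rose (9.52% called, against 2.45% of all entries called lower, median log2 fold change -0.27). The fibrillin gene fbn2b was at 27.4, 43.7 and 37.4 CPM in KO, against 57.6, 62.0, 66.9, 59.9 and 59.1 CPM in 2-HD (-0.76, SE 0.13, adjusted p = 0.0236, 4 of 8 fits). The endothelial laminin chain gene lama4 was at 58.5, 67.2 and 68.0 CPM in KO, against 91.8, 80.8, 83.8, 85.9 and 87.4 CPM in 2-HD (-0.41, SE 0.08, adjusted p = 0.0259, 2 of 8 fits). Both groups were clear of each other in these genes. Collagen cross-linking and processing genes loxl2a (-0.92), loxl2b (-0.53), p4ha1a (-0.72), p4ha1b (-0.86) and serpinh1b (-0.51), and the collagen genes col1a2 (-0.43) and col4a5 (-0.46), were among the falls, in 1 to 2 of 8 fits. KO replicate 2 was the lowest KO library in 119 of the 147 entries, and the reason was not tested. The summed level was 13041 CPM in KO replicate 2 and 16233 and 16800 CPM in the other KO libraries, against 16774 to 19910 CPM in 2-HD. Without KO replicate 2, 2 entries fell, without KO replicate 3 the count was 0, and without 2-HD replicate 1, 3 rose and 32 fell. The hypoxia list shares loxl2b and p4ha1b with the matrix list, tfa with the hepatocyte list and rorca with the clock list. With these shared calls included, it held 5 falls and 2 rises among 49 entries (14.3% called, against 5.28% over all entries). It had 8 falls and 13 rises without 2-HD replicate 1, 1 of each without KO replicate 2 and 0 calls without KO replicate 3. hif1aa, a hypoxia-inducible factor gene, fell by 0.48 on the log2 scale, at 10.4, 11.3 and 9.31 CPM in KO, against 13.7, 14.2, 15.2, 14.4 and 14.4 CPM in 2-HD (adjusted p = 0.0278, 1 of 8 fits).

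Muscle genes moved both ways. Of 115 skeletal muscle entries, 5 rose and 5 fell (8.7% called, against 5.28% over all entries, median log2 fold change 0.00). The sarcomere gene obsl1b was at 33.2, 34.9 and 38.7 CPM in KO, against 54.0, 54.8, 57.5, 57.5 and 67.7 CPM in 2-HD (-0.71, SE 0.09, adjusted p = 0.0106, 7 of 8 fits), and the myosin-binding gene mybpha fell by 0.67 on the log2 scale (adjusted p = 0.0199, 6 of 8 fits). Of 42 cardiac entries, 3 fell and 1 rose (9.52% called, against 5.28% over all entries), with 4 and 1 without 2-HD replicate 1 and 2 and 1 without KO replicate 2. The cardiac myosin light chain gene myl7 was at 12.4, 19.6 and 17.7 CPM in KO, against 27.0, 34.2, 27.6, 29.1 and 30.3 CPM in 2-HD (-0.84, SE 0.14, adjusted p = 0.0236, 4 of 8 fits). The groups were apart in these genes. The cardiac actin entry actc1a rose by 3.32 only through KO replicates 3 and 7, at 23.5 and 27.0 CPM, while KO replicate 2 at 1.68 CPM lay within the 2-HD range of 1.59 to 1.95 CPM (2 of 8 fits). It shares its symbol with another entry and has close actin paralogues. Skeletal muscle entries had 21 rises and 12 falls without 2-HD replicate 1 and 2 of each without KO replicate 2, and both muscle lists had 0 calls without KO replicate 3.

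Pigment cell genes that passed were mostly lower in KO. Of 54 pigment cell entries, 6 fell and 1 rose (13% called, against 5.28% over all entries, median log2 fold change -0.11). The pteridine synthesis gene pts was at 12.4, 12.3 and 11.8 CPM in KO, against 19.2, 16.0, 18.8, 17.5 and 17.5 CPM in 2-HD (-0.54, SE 0.09, adjusted p = 0.0224, 5 of 8 fits). gch2 (-0.50), which starts that pathway in xanthophores, aox5 (-0.73) and the xanthophore transporter gene slc2a11b (-0.89) fell, as did pmelb (-0.44) of melanosomes and the neural crest factor gene sox10 (-0.36), in 1 to 4 of 8 fits. The purine synthesis gene paics rose, at 107, 127 and 210 CPM in KO, against 64.4, 68.3, 67.4, 66.4 and 57.1 CPM in 2-HD (1.195, SE 0.18, adjusted p = 0.0144, 6 of 8 fits), with KO replicate 7 well above the other KO libraries. Without KO replicate 3 the count was 0, without KO replicate 2, 1 rose and 1 fell, and without 2-HD replicate 1, 1 rose and 9 fell.

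Inhibitors of pyruvate oxidation were among the genes of glucose handling that rose. Of 67 glycolysis and pyruvate entries, 6 rose and 2 fell (11.9% called, against 5.28% over all entries, median log2 fold change 0.07). The pyruvate dehydrogenase kinase gene pdk2b was at 123, 209 and 175 CPM in KO, against 117, 55.7, 69.8, 64.5 and 41.5 CPM in 2-HD (1.28, SE 0.28, adjusted p = 0.0348, 2 of 8 fits), and pdk2a at 127, 108 and 114 CPM in KO, against 88.5, 67.1, 81.5, 75.8 and 65.2 CPM in 2-HD (0.62, SE 0.11, adjusted p = 0.0236, 3 of 8 fits). For both, 2-HD replicate 1 was the 2-HD library nearest to KO. pdk1 rose by 0.48 (adjusted p = 0.0494, 1 of 8 fits) and the lactate dehydrogenase gene ldhbb fell by 0.68 on the log2 scale (adjusted p = 0.0285, 2 of 8 fits). Of 57 gluconeogenesis and insulin-FoxO entries, 3 rose and 0 fell (5.26% called, against 2.83% of all entries called higher and 5.28% called either way). The insulin receptor substrate gene irs2a was at 55.6, 66.8 and 72.7 CPM in KO, against 32.5, 41.5, 44.9, 42.0 and 33.6 CPM in 2-HD (0.74, SE 0.13, adjusted p = 0.0231, 4 of 8 fits), and foxo3a (0.57, 1 of 8 fits) and foxo3b (0.42, 4 of 8) rose as well. In irs2a the lowest KO library was above the highest 2-HD library. Both lists had 0 calls without KO replicate 3. With 2-HD replicate 1 set aside, the glycolysis list had 15 rises and 9 falls and the FoxO list 11 and 2, and without KO replicate 2 they had 1 and 0, and 4 and 0.

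In the glucocorticoid and steroid list, 4 of 46 entries rose and 1, cyp11c1, fell (10.9% called, against 5.28% over all entries, median log2 fold change 0.22). The mineralocorticoid receptor gene nr3c2 was at 11.8, 11.7 and 11.8 CPM in KO, against 8.02, 8.51, 8.06, 7.75 and 8.05 CPM in 2-HD (0.54, SE 0.09, adjusted p = 0.0199, 6 of 8 fits). zbtb16b, a glucocorticoid-induced transcription factor gene in mammals, was at 14.5, 12.6 and 12.8 CPM in KO, against 9.83, 7.40, 7.76, 7.49 and 6.14 CPM in 2-HD (0.78, SE 0.14, adjusted p = 0.0237, 3 of 8 fits). Both genes were higher in every KO library. The well-known glucocorticoid target fkbp5 overlapped, at 47.8, 149.7 and 97.9 CPM in KO and 96.5 to 134 CPM in 2-HD (-0.30, adjusted p = 0.52). Without KO replicate 3 cyp11c1 alone remained of these calls, without KO replicate 2 the list had 4 rises and 1 fall, and without 2-HD replicate 1 it had 13 rises and 2 falls among 44 entries.

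Genes of sphingolipid and aldehyde metabolism were examined because sphingosine 1-phosphate is broken down to a fatty aldehyde. Of 39 sphingolipid entries, 4 fell and 1 rose (12.8% called, against 5.28% over all entries, median log2 fold change -0.15). The sphingosine 1-phosphate lyase gene sgpl1, whose product releases that aldehyde, was at 157, 191 and 205 CPM in KO, against 230, 288, 273, 259 and 244 CPM in 2-HD (-0.49, SE 0.11, adjusted p = 0.034, 1 of 8 fits). The neutral ceramidase gene asah2 was at 31.6, 55.9 and 65.2 CPM in KO, against 88.8, 113, 79.8, 95.1 and 91.1 CPM in 2-HD (-0.88, SE 0.20, adjusted p = 0.0378, 1 of 8 fits). KO replicate 2 was lowest in both, and the groups did not overlap. The serine palmitoyltransferase subunit gene sptlc2a fell by 0.39 on the log2 scale (adjusted p = 0.0423, 1 of 8 fits). The receptor gene s1pr1 rose, at 79.9, 83.8 and 85.9 CPM in KO, against 70.4, 62.2, 64.9, 59.8 and 59.7 CPM in 2-HD (0.39, SE 0.08, adjusted p = 0.0263, 1 of 8 fits), and was the 1 entry called among 87 endothelial and vascular entries (1.15% called), where 6 rose without 2-HD replicate 1 and 0 without KO replicate 2. The sphingolipid count was 0 without KO replicate 2 or KO replicate 3, and 4 rises and 5 falls without 2-HD replicate 1. In the edgeR fit of all 13 libraries the list had 1 rise and 1 fall, and neither sgpl1 (adjusted p = 0.0899) nor asah2 (0.0667) passed.

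Further lists of carbonyl, redox and drug metabolism and of p53 targets had calls in both directions. Of 34 carbonyl and aldo-keto reductase entries, 3 fell and 1, rdh8b, rose (11.8% called, against 5.28% over all entries). The carbonyl reductase gene cbr1l was at 53.7, 49.8 and 61.6 CPM in KO, against 67.6, 77.1, 81.1, 75.8 and 98.8 CPM in 2-HD (-0.54, SE 0.12, adjusted p = 0.0367, 1 of 8 fits), and cbr1 (-0.66, 1 of 8) and the retinol dehydrogenase gene dhrs9 (-0.50, 2 of 8) fell too. Of 53 Nrf2 and glutathione entries, 2 fell and 1 rose (5.66% called, close to the share over all entries). The peroxiredoxin gene prdx2, also abundant in erythrocytes, was at 287, 273 and 270 CPM in KO, against 365, 368, 360, 377 and 374 CPM in 2-HD (-0.41, SE 0.06, adjusted p = 0.0171, 6 of 8 fits). All 3 KO libraries were lower by a similar amount. Of 99 cytochrome P450 and UGT entries, 4 rose and 5 fell (9.09% called), among them cyp2p9 (0.92, adjusted p = 0.0237) and ugt5b1 (-0.60, adjusted p = 0.0261), each in 3 of 8 fits. Of 31 p53 target entries, 2 rose and 2 fell (12.9% called). The cell cycle inhibitor gene cdkn1a was at 19.9, 30.4 and 29.8 CPM in KO, against 38.8, 53.5, 68.8, 53.6 and 61.1 CPM in 2-HD (-1.05, SE 0.19, adjusted p = 0.0237, 3 of 8 fits). In each of these lists the count without KO replicate 3 was 0, other than 1 fall among the P450 and UGT entries. Without 2-HD replicate 1, the carbonyl reductase list had 2 rises and 6 falls, the Nrf2 list 1 and 6, the P450 and UGT list 11 and 11 and the p53 list 7 and 3. Without KO replicate 2 these counts were 1 and 0, 0 and 1, 4 and 3, and 1 and 0.

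**Figure D4:**
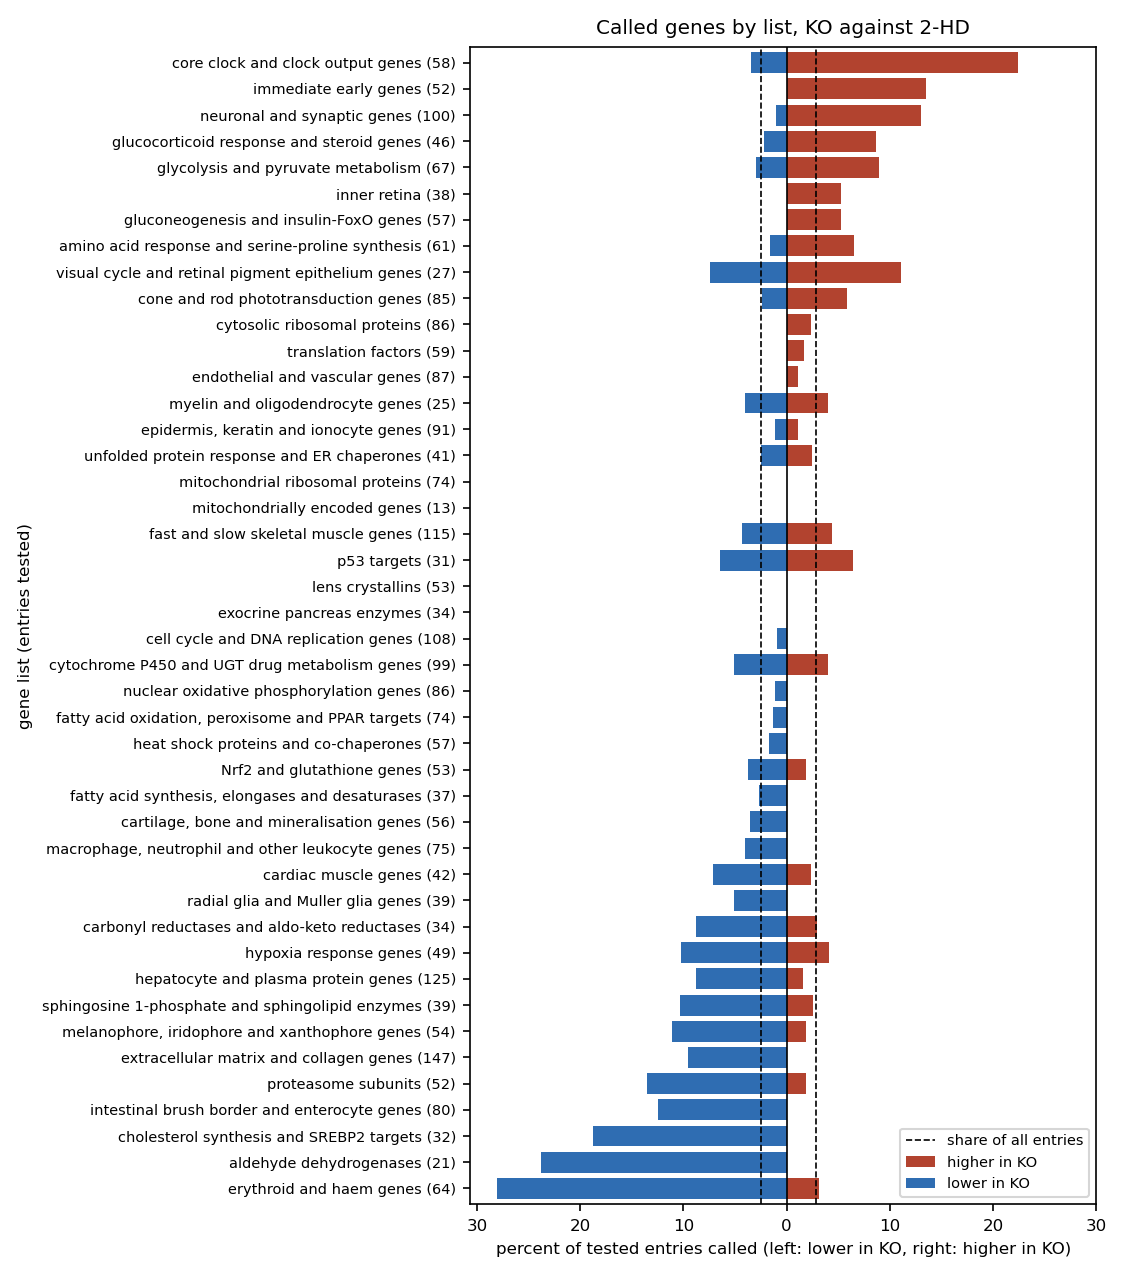
Percent of the tested entries of each of 44 gene lists called lower in KO (blue, left of 0) or higher in KO (red, right of 0), with the number tested in parentheses; dashed lines mark the shares over all entries, 2.83% higher and 2.45% lower. Clock genes have the largest share called higher, and erythroid and haem genes and aldehyde dehydrogenases the largest shares called lower. The aldehyde dehydrogenase share includes the targeted gene aldh3b1.

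Mitochondrial ribosomal proteins and mitochondrially encoded genes, like the lens and exocrine pancreas lists, had no calls in edgeR with all 8 libraries. Without 2-HD replicate 1, 8 mitochondrial ribosomal entries fell and 1 mitochondrially encoded entry rose, and without KO replicate 2 neither list had a call. For the 74 mitochondrial ribosomal entries, 13 had an unadjusted p under 0.05, all lower, and DESeq2 called 1, and for the 13 mitochondrially encoded entries both counts were 1. Cytosolic ribosomal proteins had 2 rises among 86 entries (2.33% called), rpl12 (0.28) and rpl21 (0.27). Fitted values were above 0 for 71 of the 86 and below 0 for 15. At an unadjusted p under 0.05 in edgeR, 22 of them were higher and 1 was lower. The cell cycle list had 1 fall among 108 (ccnd2a, -0.47, 0.926% called), and nuclear oxidative phosphorylation 1 fall among 86 (cox6a2, -0.63, 1.16% called). For leukocytes, 3 of 75 entries fell (coro1a, mpeg1.2 and grna, 4% called). All these shares were below the 5.28% called over all entries. The leukocyte share held only falls and was above the 2.45% of all entries called lower. The genes named for these lists passed in 1 to 4 of 8 fits. Without 2-HD replicate 1 the cytosolic ribosomal list had 10 rises and 1 fall, the cell cycle list 0 and 1, oxidative phosphorylation 2 and 5 and leukocytes 3 and 6, and without KO replicate 2 all these counts were 0. In several of these lists KO replicate 2 differed from the other KO libraries. It was the highest KO library for 68 of 74 mitochondrial ribosomal entries and 87 of 108 cell cycle entries, although fitted values were below 0 for 59 and 64 of them.

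A high share of the genes in the stretch around aldh3b1 was called, other than in the part next to the gene itself. Order was read from the current zebrafish RefSeq annotation (GRCz12tu), to which 17520 of the 21867 entries matched by symbol. Of the 200 measured genes nearest to aldh3b1, 37 were called, 17 higher and 20 lower (18.5%), compared with 42 of 684 on the rest of that chromosome (6.14%) and 889 of 16635 on other chromosomes (5.34%). The share was lowest next to the gene itself. Within 25 genes on either side 3 of 50 were called (6%), and the counts were 11 of 50 from 26 to 50 genes away, 10 of 50 from 51 to 75 and 13 of 50 from 76 to 100. In the absence of 2-HD replicate 1, 72 of the 200 were called (36%), against 18.9% on the rest of the chromosome and 17.9% elsewhere. Without KO replicate 2, 8 were called, and without KO replicate 3 the count was 0. No test of this excess was made, since neighbouring genes are not independent.

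Several genes named above lie in this stretch, namely aldh16a1, psmc3ip, fthl29, fthl27, syt5a, cox6a2 and coro1a. Others named above, grna, hbbe1.3, nfil3-6, slc4a1a, sox9b, sox10 and srebf2, lie on the same chromosome outside the 200 nearest. The second row of hbae1.3 was not matched to the gene order, so its position was not checked. Of further list members in the stretch, the synaptogyrin gene syngr3a rose (0.37, 1 of 8 fits). The myosin-binding gene mybpc2a fell (-1.35, adjusted p = 0.0434, 1 of 8 fits) although the groups overlapped, at 22.3, 33.7 and 30.1 CPM in KO, against 27.7 CPM in 2-HD replicate 1 and 83.95 to 85.2 CPM in the other 2-HD libraries. Of genes picked out after their values were seen, the calcium-binding protein gene rcn3 averaged 11.3 ± 2.14 CPM in KO (SD, n = 3) and 30.7 ± 8.35 CPM in 2-HD (SD, n = 5), a log2 difference of -1.44 (SE 0.24, adjusted p = 0.0231, 4 of 8 fits). The cation channel gene trpm4a averaged 31.0 ± 2.99 CPM in KO and 47.8 ± 3.38 CPM in 2-HD (-0.63, SE 0.09, adjusted p = 0.0144, 6 of 8 fits). Of 3 neighbouring caspase-6 paralogues, casp6b.1 rose (1.05, adjusted p = 0.0237, 4 of 8 fits), casp6b.2 fell (-2.76, adjusted p = 0.0144, 6 of 8 fits) and casp6a, between them, did not pass (-0.20, adjusted p = 0.261). Reads of such close copies may be assigned to either, so these are uncertain. The levels of casp6b.2 were also very low, at 0.105 to 0.107 CPM in KO and 0.531 to 1.03 CPM in 2-HD. In the KO libraries 3 counts make 0.155 to 0.157 CPM, so the size of its change is poorly determined. Whether the knockout and treated larvae carry different haplotypes around the edited locus is not stated in the labels and was not tested.

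**Figure D5:**
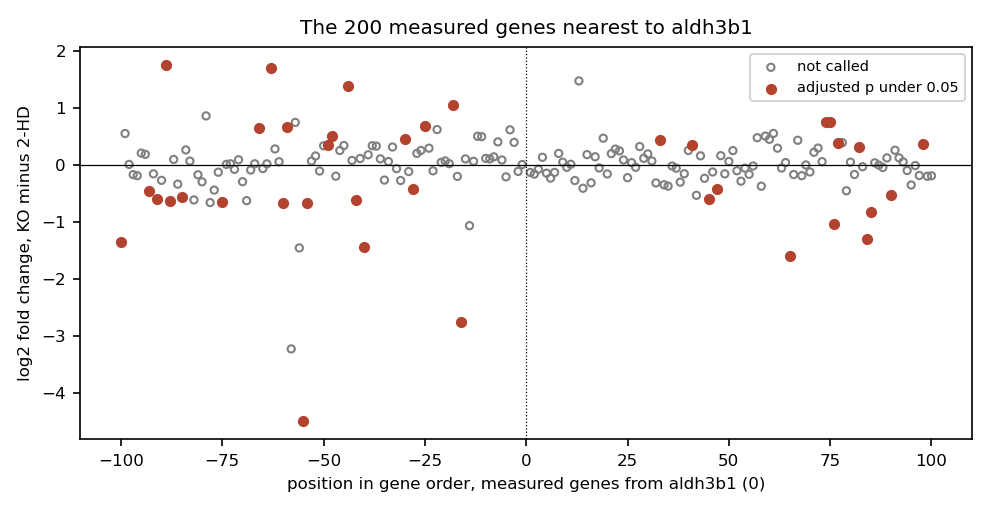
Log2 fold change (KO minus 2-HD) of the 200 measured genes nearest to aldh3b1 against their position in gene order (0 is aldh3b1 itself, not drawn); filled points passed an adjusted p of 0.05. The 37 filled points lie above and below 0, and only 3 of them are within 25 genes of aldh3b1.

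The calls least dependent on single libraries were 17 entries that passed with all 8 libraries and in all 8 fits leaving out 1. They include ace, c3a.2, cyp11c1, nr1d4a, nr1d4b, nfil3-6, rbp3 and rorcb, described above, and 3 entries with placeholder symbols. The others were looked at after their values were seen. The linker histone genes histh1l and h1-10 rose: histh1l averaged 465 ± 49.6 CPM in KO (SD, n = 3) and 220.3 ± 17.1 CPM in 2-HD (SD, n = 5; log2 fold change 1.08, SE 0.09, adjusted p = 0.00131), and h1-10 averaged 129.7 ± 6.45 CPM in KO and 61.9 ± 6.92 CPM in 2-HD (1.07, SE 0.09, adjusted p = 0.00131). The glycogen-targeting phosphatase subunit gene ppp1r3cb was at 65.2, 67.9 and 69.2 CPM in KO, against 42.7, 40.6, 40.4, 40.3 and 39.7 CPM in 2-HD (0.73, SE 0.06, adjusted p = 0.00131), with hardly any spread within either group. The melanosome and macrophage glycoprotein gene gpnmb rose (1.27, SE 0.13, adjusted p = 0.00423). The photoreceptor actin-bundling gene fscn2a (-1.28, SE 0.13, adjusted p = 0.00423) and the ubiquitin ligase gene mylipb (-1.28, SE 0.14, adjusted p = 0.00527) fell. fscn2a, like nfil3-6, lies on the chromosome of aldh3b1, outside the 200 nearest genes. In the edgeR fit of all 13 libraries nfil3-6 did not pass (adjusted p = 0.0574).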

How the data were processed

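RNA sequencing was analysed in 8 libraries of zebrafish larvae. The authors deposited raw read counts for each gene, as whole numbers and with no scaling. The submitters' processing notes name Trim Galore (0.6.7), HISAT2 (2.2.1), featureCounts (2.0.1) and the GRCz11 build. The annotation, strand setting and handling of multiply mapped reads are not given in the sources used here, so paralogues, overlapping genes and antisense partners are uncertain. The table has 32417 entries and 31681 distinct symbols. Entries that share a symbol were kept apart.

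The analysis used edgeR 4.0.16 under R 4.3.3. filterByExpr with a minimum count of 10 left 21867 entries. TMM factors scaled the library sizes and entered the CPM values. A quasi-likelihood model was fitted to the 3 KO and 5 2-HD libraries, with KO minus 2-HD as contrast. An adjusted p (Benjamini-Hochberg, over all entries tested) under 0.05 made a call. SEs come from the fold change and its F statistic. The biological coefficient of variation was 0.144. No pair of libraries within a group agreed to within counting noise, so none was treated as a duplicate. Depth was 19066393 to 19482661 counts per library, so counting error weighs most on genes at a few CPM or less.

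The naming rule took aldh3b1, each called aldehyde dehydrogenase, and the 12 largest rises and 12 largest falls among called genes with a unique, non-placeholder symbol, groups that do not overlap and a mean log2 CPM of 1 or more. From each list it took up to 4 called members of smallest adjusted p, or all where 1 or 2 were called. The 44 lists were written from general knowledge. The comparison, lists and rule were chosen with earlier results of these data known. Other members are named only as part of a list, and genes picked after their values were seen are marked as such. Alternatives were other scalings and filters, DESeq2 1.42.0, a fit of all 13 libraries, a replicate block, a test against a 1.2-fold change, and leaving out each library. The steps were tested on simulated data. Some list members that passed the test are counted but not named or reported here.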

Additional observations from a re-analysis of the deposited data

Results flagged for a closer look

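Of the 126 genes named by rule and 67 others examined because the text names them, 21 had 1 library among the 5 2-HD libraries whose gap to the nearest other exceeded Dixon's 95% critical value. Chance alone flags about 1 in 20 groups. The library was 2-HD replicate 1 for 14 of them. It was high for pde6ha (40.0 CPM, the others 7.55 to 12.7), camk1gb (54.6 CPM, the others 17.6 to 21.1), rbpms2a (104 CPM, the others 74.3 to 82.5), ppp1r15a (57.6 CPM, the others 42.3 to 45.9), aldh3b2 (4.67 CPM, the others 2.03 to 2.53), nr1d2b (232 CPM, the others 146 to 169), rorab (101 CPM, the others 66.3 to 75.2) and syngr3a (89.8 CPM, the others 66.8 to 72.8). It was low for aldh16a1 (20.6 CPM, the others 25.4 to 27.1), sox9b (45.3 CPM, the others 52.6 to 55.4), fdft1 (12.4 CPM, the others 16.0 to 17.4), cpox (22.7 CPM, the others 28.1 to 29.9), mybpc2a (27.7 CPM, the others 83.95 to 85.2) and trpm4a (41.9 CPM, the others 48.7 to 50.3). In all 14 the value of 2-HD replicate 1 lay on the KO side of its group.

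2-HD replicate 3 stood apart for nfil3-5 (26.9 CPM, the others 31.7 to 33.2), ddit3 (48.8 CPM, the others 43.3 to 44.5), pgam2 (59.6 CPM, the others 70.0 to 72.3) and p4ha1b (25.96 CPM, the others 15.9 to 16.7). 2-HD replicate 2 stood apart for cldn1 (34.3 CPM, the others 38.9 to 40.7) and 2-HD replicate 5 for obsl1b (67.7 CPM, the others 54.0 to 57.5) and c4b (26.2 CPM, the others 14.2 to 16.6). Groups of 3, such as the KO libraries, were not examined in this way.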

How the results depend on the processing

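Against 1155 called entries (619 higher and 536 lower in KO), leaving out 1 library gave 19 to 3755 calls (10 to 1989 higher, 9 to 1766 lower). DESeq2 called 2395 (1220 higher, 1175 lower), of which 1134 were shared, and a test against a 1.2-fold change called 37 (18 higher, 19 lower). Other scalings gave 1167 and 1200 calls, no filter 1081, a minimum count of 50 gave 1302, and the fit of all 13 libraries 1547. For aldh3b1, leaving out 1 library gave log2 fold changes of -1.03 to -0.85, and its -0.96 did not pass against a 1.2-fold change (adjusted p = 0.0991). None of the 126 genes named by rule changed direction under any alternative run. All of them were called and most had no overlap between the groups, so their choice largely fixed that outcome. Of the others in the text, the uncalled fkbp5 (-0.74 to 0.03) and nr1d1 (-0.51 to 0.13) changed direction. Of the 126, all kept their call in DESeq2 and without 2-HD replicate 1, 118 lost it without KO replicate 3 and 17 lost it in the fit of all 13 libraries. Those lost in the fit of all 13 libraries include nfil3-6 (adjusted p = 0.0574), nfil3-5 (0.244), six7 (0.246) and serpinh1b (0.414). They also include sgpl1 (0.0899), asah2 (0.0667), slc15a1a (0.0981), nr3c2 (0.0734) and prdx2 (0.0691).

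The labels share only the numbers 2 and 3 between the groups and do not say that a number pairs libraries. Deviations of libraries with the same number correlated at -0.0071 and -0.0083. With the number as a replicate block, 156 entries were called (62 higher, 94 lower), 99 of them shared, and aldh3b1 changed by -0.68 (adjusted p = 0.156). That fit takes the contrast from 4 libraries.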
